A study of Homo sapiens with 8 samples.

Results

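T-box genes encode transcription factors that share a DNA-binding domain, the T-box, and the genes described here are TBX1, TBX2, TBX3, TBX4, TBX5, TBX15, TBX18, TBX20, TBX21 and TBR1. These 10 genes were chosen by name, from 20083 protein-coding genes of chromosomes 1 to 22 and X, by a rule that uses no measured value, although earlier results of these data were known when the list was made. For each gene the span from 2 kb upstream of the annotated start to the annotated end was taken on GRCh37, and the length of that span covered by islands of H3K27me3 and of H3K4me3 was measured. The 10 spans add up to 416 kb.

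The libraries came from ChIP-seq in PC9, a cell line derived from a human lung adenocarcinoma, after 5 days with DMSO alone or with GSK126 at 1 μM. The small molecule GSK126 inhibits EZH2, which methylates histone H3 at lysine 27. There were 8 libraries, 2 for each treatment and mark, and 14 island lists. Every reaction had also received chromatin from OSS cells, a D. melanogaster line, and an antibody to the D. melanogaster histone variant H2Av, so DMSO and GSK126 samples shared this addition, and all results are from a single human cell line. An island is a stretch of the genome in which SICER found more sequencing tags than a random background would give. Under the standard normalization the authors had brought both libraries of a replicate to the same number of human tags, whereas under the spike-in normalization they had removed human tags from the GSK126 library by a factor taken from the D. melanogaster tags. The spike-in lists therefore compare the treatments after scaling to the fly chromatin, and the standard lists compare how an equal number of tags was distributed. A single list served both normalizations for each H3K4me3 library with DMSO.

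T-box factors act in the development of the heart, limbs, pharynx, brain and immune system, and several of them are expressed in the mesenchyme of the developing lung. Their genes are classic targets of Polycomb repressive complex 2, in which EZH2 is the catalytic subunit. H3K27me3 marks genes held silent by this complex in cells where they are not used, and H3K4me3 marks the starts of active genes or of genes that are ready for activation.

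The gene starts differed in CpG content as well as in marks, and the 250 bases just upstream of 3 annotated starts are shown because they stand for 3 states of H3K27me3 at the start in the spike-in lists. TBX5 had H3K27me3 at the start in every library, TBX20 had H3K27me3 at the start in all libraries but GSK126 replicate 2, and TBR1 had an island of neither mark. Capitals mark CpG dinucleotides, and each sequence is read 5′ to 3′ on the strand of the gene in GRCh37. The positions are chr12:114846248-114846497 (minus strand) for TBX5, chr7:35293712-35293961 (minus strand) for TBX20 and chr2:162272558-162272807 (plus strand) for TBR1.
TBX5: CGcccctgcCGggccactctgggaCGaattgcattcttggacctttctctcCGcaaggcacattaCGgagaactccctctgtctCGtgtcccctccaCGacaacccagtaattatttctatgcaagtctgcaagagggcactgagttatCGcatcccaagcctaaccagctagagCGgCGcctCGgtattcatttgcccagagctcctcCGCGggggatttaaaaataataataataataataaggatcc
TBX20: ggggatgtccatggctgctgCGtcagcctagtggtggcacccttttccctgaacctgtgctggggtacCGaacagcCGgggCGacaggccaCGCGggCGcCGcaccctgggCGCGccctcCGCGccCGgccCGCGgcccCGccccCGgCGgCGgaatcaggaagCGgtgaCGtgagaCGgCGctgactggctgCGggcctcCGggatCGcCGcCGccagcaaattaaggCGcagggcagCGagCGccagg
TBR1: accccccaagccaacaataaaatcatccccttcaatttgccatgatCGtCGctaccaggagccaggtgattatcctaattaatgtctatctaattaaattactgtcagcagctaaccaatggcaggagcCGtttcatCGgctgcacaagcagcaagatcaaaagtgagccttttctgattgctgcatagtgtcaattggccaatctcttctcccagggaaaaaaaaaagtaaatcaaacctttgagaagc
These windows held 13 CpGs for TBX5, 31 for TBX20 and 4 for TBR1, beside a median of 14 over all genes. Within 1000 bp on either side of the start, the ratio of observed to expected CpGs was 1.02 for TBX18, 0.902 for TBX2, 0.814 for TBX3, 0.794 for TBX20, 0.766 for TBX4, 0.700 for TBX21, 0.668 for TBX5, 0.568 for TBX15, 0.568 for TBX1 and 0.542 for TBR1. The median over all genes was 0.612, and 7 of the 10 members were above it. TBX18 had a higher ratio than nearly all genes, since 0.224% of genes reached its value, and it was still without an island of either mark. The letters TCACAC, a core half-site for T-box proteins, were searched on both strands, and 0 of the 10 windows of 250 bases held them, beside 9.51% of all genes.

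H3K27me3 was the prevailing mark over these genes. With spike-in lists, an H3K27me3 island lay over 8 of the 10 members in at least 1 of the 4 libraries, beside 6456 of all 20083 genes. The DMSO libraries had an island within 1000 bp of the annotated start in both replicates at 6 of the 10 genes, TBX1, TBX3, TBX5, TBX15, TBX20 and TBX21, beside 17.8% of all genes. With GSK126 this held for 5 of the 10, TBX20 being the difference, beside 8.96% of all genes. H3K4me3 at the start was present in both DMSO replicates at 1 of the 10, TBX2, beside 59.4% of all genes. The lung epithelial genes EPCAM, KRT8, KRT18, CDH1 and EGFR had H3K4me3 at the start in both DMSO replicates at 4 of 5 genes and H3K27me3 in both at 0 of 5. None of the T-box starts (0 of 10) carried both marks in both DMSO replicates, beside 4.87% of all genes. When an island in either replicate was counted, 2 of 10, TBX1 and TBX21, carried both. The share of all genes under that looser rule was not computed.

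With spike-in normalization, H3K27me3 covered less length with GSK126 than with DMSO in both replicates at 6 of the 8 members that had islands, namely TBX1, TBX4, TBX5, TBX15, TBX20 and TBX21. The share over all genes with an island was 77.4%, so the members' count is near the background. At the same 6 genes both GSK126 libraries lay below both DMSO libraries, beside 75% of all genes. Summed over the 10 genes, the islands of replicate 1 covered 160 kb with DMSO and 82.0 kb with GSK126, and those of replicate 2 covered 171 kb and 89.2 kb. The GSK126 libraries thus kept 51.3% and 52.1% of the DMSO length, a log2 ratio of -0.95 ± 0.015 (SD, n = 2), beside -1.14 ± 0.047 (SD, n = 2) for all islands of the genome. The difference between the treatments was many times the spread of these 2 ratios. That spread was 0.20 when only islands of at least 2 times the lowest score were kept. In these lists human tags had been removed from the GSK126 library of each replicate, which can by itself shorten islands. The small spread therefore gives no support that is independent of that scaling. An exact sign-flip test over 2 pairs of libraries cannot give a p below 0.5, and no p-values are given.

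**Figure D1:**
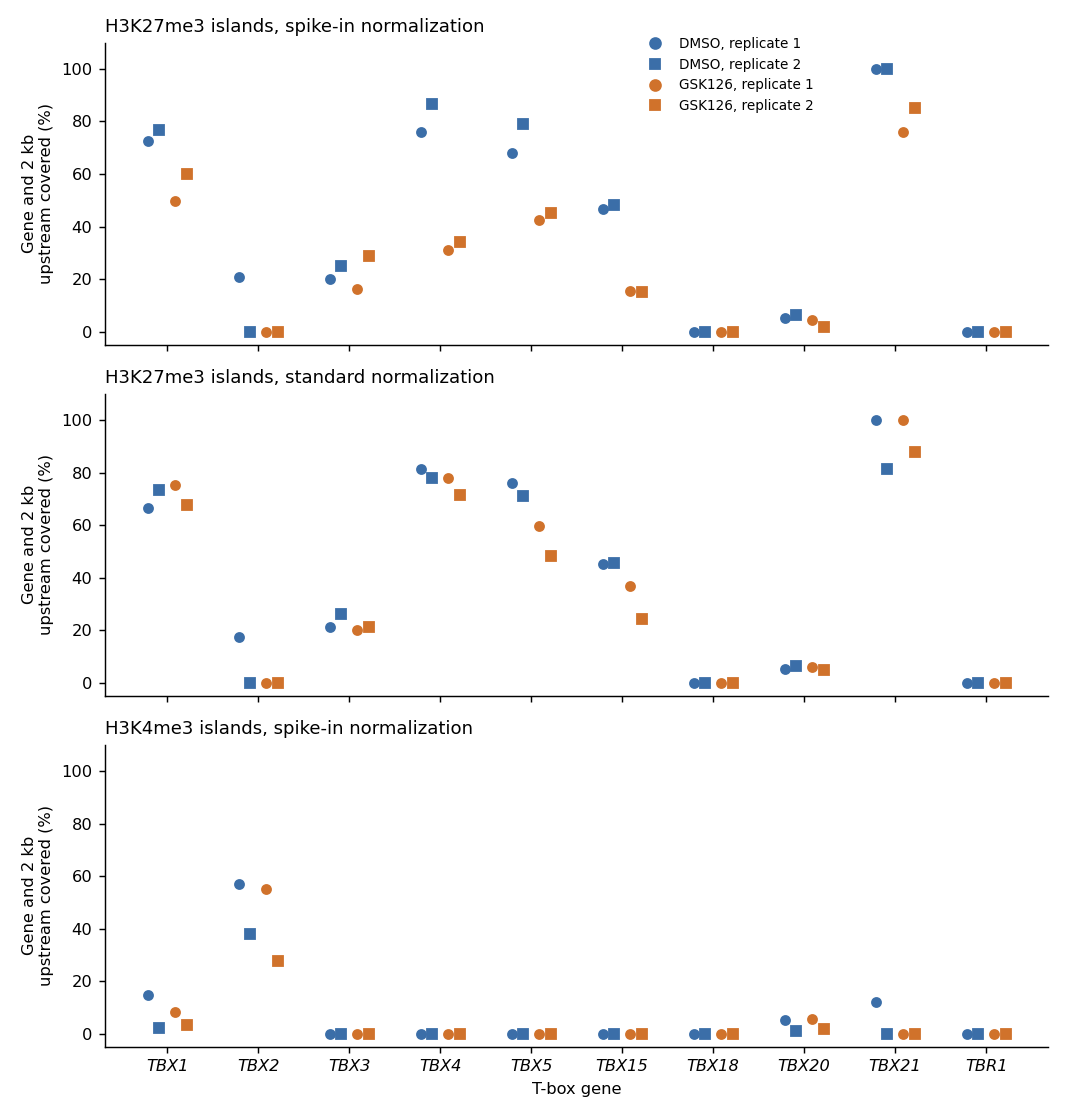
Percent of each T-box gene and its 2 kb upstream covered by islands, in each library. Blue is DMSO, orange is GSK126, circles are replicate 1 and squares replicate 2; the top panel shows H3K27me3 with spike-in normalization, the middle panel H3K27me3 with standard normalization and the bottom panel H3K4me3 with spike-in normalization. In the top panel the orange points of TBX1, TBX4, TBX5, TBX15, TBX20 and TBX21 lie below the blue ones, and in the bottom panel TBX2 stands above the other genes.

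The heart and limb genes TBX5, TBX4 and TBX3 differed in how much H3K27me3 they kept. TBX5, which acts in the forelimb and the heart and is mutated in Holt-Oram syndrome, spans chr12:114791716-114846247 on the minus strand. Its covered share was 68.0% and 79.0% in the DMSO libraries of replicates 1 and 2, and 42.5% and 45.0% in the GSK126 libraries. Both GSK126 values were below both DMSO values, and 62.5% and 57.0% of the DMSO length was kept.

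TBX4, which acts in the hindlimb and in the lung mesenchyme, spans chr17:59529765-59562471 on the plus strand. H3K27me3 covered 76.1% and 86.7% of its span with DMSO and 31.1% and 34.0% with GSK126, so its GSK126 length came to 40.9% and 39.2% of its DMSO length. Of the 10 genes it had the second highest share with DMSO, after TBX21, and the groups did not overlap. The islands of TBX4 lay mostly within the gene. An island came within 2 kb of the start in both DMSO libraries, with 0.565 kb and 2.44 kb covered, and in neither GSK126 library. The island at the start in DMSO replicate 2 scored 45.9, near the lowest score of its list, 42.7. In the standard list of that library the first island over TBX4 ran from 2.24 to 14.4 kb.

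TBX3, a repressor that acts in limb and mammary development and is mutated in ulnar-mammary syndrome, spans chr12:115108060-115121980 on the minus strand. Its H3K27me3 islands lay around the start and upstream, and the covered share was 20.0% and 25.0% with DMSO and 16.2% and 28.8% with GSK126. The replicates went in opposite directions and the groups overlapped. In the spike-in lists the 262 kb between TBX5 and TBX3 were covered at 46.4% and 55.7% with DMSO and at 19.8% and 20.9% with GSK126. In these lists the region between the genes thus had lower coverage with GSK126 in both replicates, while at TBX3 itself the replicates differed in direction. The difference over this region was smaller in the standard lists, with 54.9% and 40.1% covered with DMSO and 51.7% and 29.9% with GSK126.

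TBX15, which acts in skeletal and muscle development, was the longest member, at chr1:119425669-119532179 on the minus strand. Its covered share was 46.7% and 48.0% with DMSO and 15.3% and 15.1% with GSK126. The covered length was 50.7 kb and 52.1 kb with DMSO and 16.6 kb and 16.4 kb with GSK126, which was the largest loss in kb of the 10 genes in both replicates. Without TBX15, the log2 ratio over the remaining members was -0.72 ± 0.019 (SD, n = 2).

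TBX1 and TBX21 were covered over most of their span and kept more of it. TBX1, a gene of pharyngeal and heart development that lies in the region deleted in DiGeorge syndrome, spans chr22:19744226-19771116 on the plus strand. Its share was 72.6% and 76.8% with DMSO and 49.8% and 60.1% with GSK126. TBX21 encodes T-bet, which directs the development of type 1 helper T cells, and spans chr17:45810602-45823488 on the plus strand. It was covered over 100% of its span in both DMSO libraries and over 75.8% and 85.2% with GSK126. For both genes the GSK126 libraries were below the DMSO libraries in these spike-in lists, which was not so in the standard lists. There TBX1 was covered at 66.4% and 73.3% with DMSO and at 75.4% and 67.8% with GSK126. TBX21 was covered there at 100% and 81.2% with DMSO and at 100% and 87.9% with GSK126.

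TBX20, TBX2, TBX18 and TBR1 carried little or no H3K27me3. TBX20, a cardiac factor at chr7:35242042-35293711 on the minus strand, had 5.1% and 6.2% covered with DMSO and 4.3% and 1.7% with GSK126. The island lay mostly upstream of the gene, from -10.1 to 0.711 kb and from -9.89 to 1.31 kb relative to the start in the DMSO libraries. With GSK126 it ran from -5.89 to 0.311 kb in replicate 1 and from -4.29 to -1.09 kb in replicate 2, so it did not reach the start in replicate 2. In the standard list of that same library it did, from -8.29 to 0.511 kb. TBX2, a repressor of cell cycle inhibitor genes at chr17:59477204-59486827 on the plus strand, had 20.9% covered in DMSO replicate 1 and 0% in the other 3 libraries.

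TBX18, which acts in the sinus node and the epicardium, lies at chr6:85397069-85474316 on the minus strand, and TBR1, a gene of cortical neurons, lies at chr2:162272808-162282381 on the plus strand. Both had 0 kb covered in every list of either mark. The nearest H3K27me3 island to TBX18 was between 625 and 3762 kb away, and the nearest H3K4me3 island was between 60.3 and 459 kb away. For TBR1 these distances were 132 kb for H3K27me3 in each of the 4 libraries and between 103 and 105 kb for H3K4me3. A gene without an island is not shown to be without the mark, since an island needs more tags than the background gives.

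H3K27me3 coverage was kept more fully around the gene starts than in the rest of the genes, where the length kept is the GSK126 length as a percent of the DMSO length. Within 2 kb on either side of the start, the members kept 90.2% of their DMSO length under GSK126 in replicate 1 and 81.3% in replicate 2. In the rest of their spans it was 45.0% and 46.9%. Without TBX15, a setting added after the data were seen, the values were 88.1% and 77.8% near the start and 54.2% and 57.4% in the rest. Over all protein-coding genes the values were 51.8% and 51.3% near the start and 48.1% and 47.1% in the rest. The contrast between the start and the rest was thus wider for the T-box genes than for all genes in both replicates. The members were not alike in this. Near the start TBX1 kept 84.4% and 100%, TBX3 81.1% and 101%, and TBX5, TBX15 and TBX21 100% in both replicates, whereas TBX20 kept 85.2% and 27.5% and TBX4 kept 0%. The TBX4 value rests on 0.565 kb and 2.44 kb with DMSO, the latter mostly from an island near the lowest score of its list.

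The members with H3K27me3 at the start in both DMSO libraries were also set beside all 3574 genes in that state. The 6 members kept 92.6% and 89.8% of the length near the start, and the 3574 genes kept 54.4% and 55.4%. In the rest of the span the values were 46.7% and 47.9% for the members and 53.4% and 52.1% for the 3574 genes. The latter order rested on TBX15, since without it the other 5 members kept 61.5% and 63.2% in the rest of the span, and 90.9% and 87.7% near the start. The window of 2 kb on either side was wholly covered in both DMSO libraries at 4 of the 10 members, TBX1, TBX5, TBX15 and TBX21, beside 6.77% of all genes. It was wholly covered in both GSK126 libraries as well at 3 of these 4, TBX5, TBX15 and TBX21, beside 34.1% of the genes that were wholly covered with DMSO. A covered window can still hold fewer tags, because coverage cannot go above its full length. These values have no test, the state of the start was looked at after the values were seen, and the number of genes is small.

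**Figure D2:**
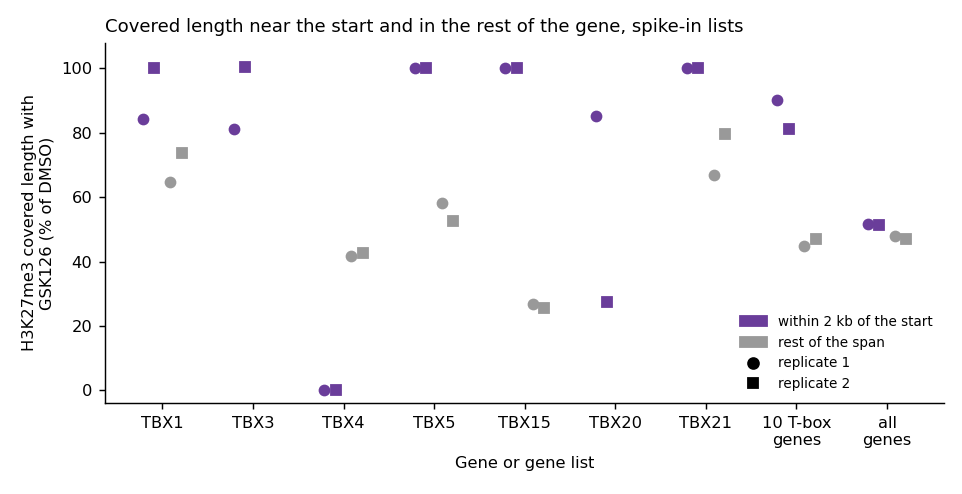
H3K27me3 covered length with GSK126 as a percent of that with DMSO, in the spike-in lists, within 2 kb of the gene start (purple) and in the rest of the span (grey), for each T-box gene with an island in both DMSO libraries, for the 10 T-box genes summed and for all protein-coding genes summed. Circles are replicate 1 and squares replicate 2, and a point is missing where DMSO had no covered length. TBX5, TBX15 and TBX21 sit at 100% near the start, TBX4 sits at 0%, and the purple points of the 10 genes are above those of all genes.

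TBX15 showed the contrast most plainly. In the spike-in lists its start was fully covered in all 4 libraries, whereas in the rest of the gene GSK126 kept 26.9% and 25.7% of the DMSO length. With DMSO its islands were spread along the gene to beyond its end, and with GSK126 they lay within 18.4 kb of the start, apart from an island at 104 to 106 kb in replicate 2. In the standard lists, GSK126 libraries also had islands farther along TBX15, such as 63.6 to 71.8 kb in replicate 1 and 66.0 to 70.2 kb in replicate 2. TBX5 kept 58.2% and 52.8% of its length in the rest of the span, and TBX21 kept 66.9% and 79.8%.

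The island over the TBX5 start was among the highest-scoring of each library. With spike-in normalization it ran from -15.6 to 19.0 kb and from -19.2 to 20.8 kb relative to the start with DMSO, and from -9.95 to 15.4 kb and from -13.4 to 20.8 kb with GSK126. It ranked 1038 of 35901 and 961 of 35522 by score with DMSO, and 442 of 19812 and 307 of 16401 with GSK126. The lists differ in length, and as a share of its list the island lay within the top 2.89% and 2.71% with DMSO and the top 2.23% and 1.87% with GSK126. The TBX5 gene has other annotated starts, and the start of its canonical transcript, 2.30 kb downstream of the first, lay inside an H3K27me3 island in all 4 libraries. At TBX1 the canonical start, 4.075 kb downstream of the first, lay outside the islands in DMSO replicate 1. It lay inside an island in DMSO replicate 2 and in both GSK126 libraries. For both genes the canonical start lies outside the window of 2 kb on either side of the annotated start that was used above.

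**Figure D3:**
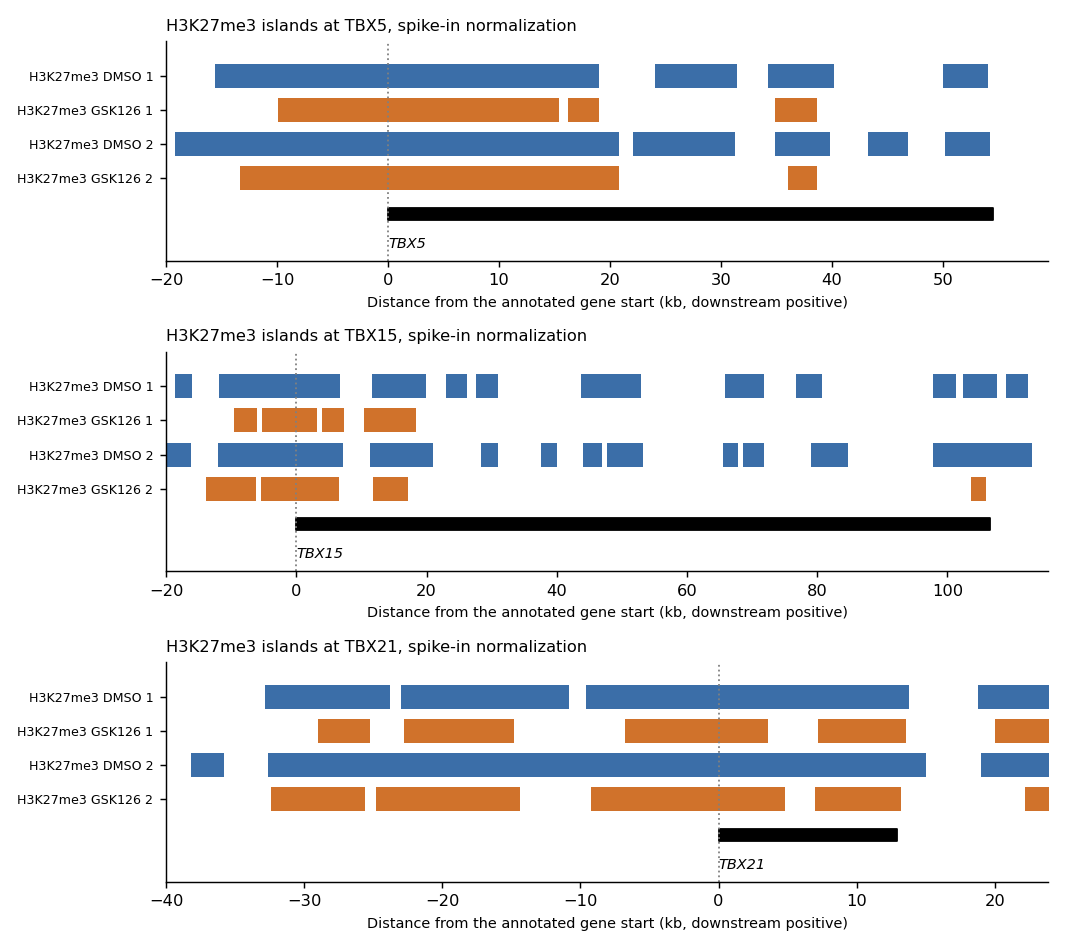
H3K27me3 islands around TBX5, TBX15 and TBX21 in each library with spike-in normalization, against the distance from the annotated gene start in kb. Blue bars are islands with DMSO, orange bars islands with GSK126 and black bars the genes, and the number after the treatment is the replicate. The dotted line at the start is crossed by an island in every library of the 3 genes, and the orange islands of TBX15 are gathered near it.

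Standard normalization asked how an equal number of tags was distributed, and gave smaller differences. The covered length of H3K27me3 summed over the 10 genes was 163 kb in DMSO replicate 1, 144 kb in GSK126 replicate 1, 158 kb in DMSO replicate 2 and 117 kb in GSK126 replicate 2. The log2 ratio was -0.31 ± 0.18 (SD, n = 2), beside -0.33 ± 0.17 (SD, n = 2) for the whole genome. Coverage was lower with GSK126 in both replicates at 4 of the 8 members with islands, TBX3, TBX4, TBX5 and TBX15, beside 46.8% of all genes. It was higher in both at 0 of the 8, beside 5.64% of all genes. TBX4 was covered at 81.3% and 78.0% with DMSO and at 77.8% and 71.5% with GSK126, a far smaller difference than in the spike-in lists. TBX15 was covered at 45.3% and 45.6% with DMSO and at 36.8% and 24.1% with GSK126, and TBX5 at 76.1% and 71.2% with DMSO and at 59.5% and 48.2% with GSK126. At these 3 genes both GSK126 libraries lay below both DMSO libraries, beside 36.5% of all genes.

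In the standard lists the scores of a replicate rest on equal tag numbers, so the score per kb of the islands over a gene can be compared between the treatments of that replicate. The score sums the improbability of the tag counts over an island, and a ratio of scores is not a ratio of tags. For TBX5 the score per kb went from 32.0 with DMSO to 83.0 with GSK126 in replicate 1 and from 41.3 to 265 in replicate 2. The ratio of GSK126 to DMSO was 2.60 and 6.41, where the medians over 4114 genes were 1.15 and 1.26, and 1.90% and 0.146% of those genes reached the value of TBX5. At equal tag number, the TBX5 islands thus covered less length with GSK126. The higher score lay in the island over the start, which went from 42.3 to 119 per kb in replicate 1 and from 56.1 to 342 in replicate 2. Islands farther along the gene scored between 13.4 and 29.0 per kb with DMSO and between 15.7 and 24.3 with GSK126.

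TBX3 had ratios of 1.84 and 1.75, TBX21 of 1.69 and 1.74, TBX1 of 1.13 and 2.53, and TBX15 of 1.07 and 1.24. Together with TBX5, these were the 5 of 7 members at which the score per kb was higher with GSK126 in both replicates, beside 55.2% of the 4114 genes. TBX20, with ratios of 0.854 and 0.707, was the only member of the 7 with a lower score in both, beside 21.8% of genes. TBX4 went in opposite directions, with ratios of 0.921 and 1.08.

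**Figure D4:**
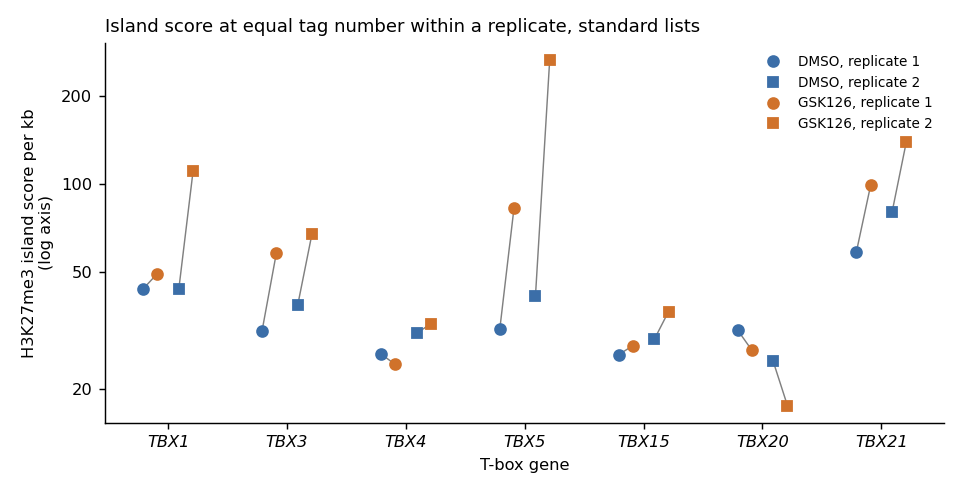
H3K27me3 island score per kb over each T-box gene in the standard lists, on a log axis. Blue is DMSO, orange is GSK126, circles are replicate 1 and squares replicate 2, and a line joins the libraries of a replicate. TBX5 has the steepest lines, from 32.0 to 83.0 and from 41.3 to 265, and the lines of TBX20 go down.

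In the spike-in lists H3K4me3 islands lay over 4 of the 10 members, beside 14495 of all 20083 genes. With spike-in normalization, H3K4me3 covered less length with GSK126 than with DMSO in both replicates at 1 of the 4, TBX2, beside 35% of all genes with an island, and higher in both at 1 of the 4, TBX20, beside 7.95%. With standard normalization it was lower in both at 1 of the 4, again TBX2, beside 35.4%, and higher in both at 0 of the 4, beside 6.82%. The log2 ratio summed over the 10 genes was -0.24 ± 0.20 (SD, n = 2) in the spike-in lists and -0.37 ± 0.44 (SD, n = 2) in the standard lists, beside -0.20 ± 0.012 and -0.19 ± 0.11 (SD, n = 2) for the whole genome. The differences between treatments were about as large as the spread between replicates. H3K4me3 replicate 2 had shorter coverage throughout, with 40.0 Mb in its DMSO list against 85.2 Mb in replicate 1, and the values of the replicates are given separately.

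TBX2 was the member with the most H3K4me3. Its covered share was 57.0% and 38.1% with DMSO and 55.3% and 27.8% with GSK126, and the groups overlapped. An island spanned the start in all 4 libraries, from -2.80 to 2.60 kb in DMSO replicate 1. Long non-coding RNA genes without a symbol also start within that stretch, at 0.401 kb on the opposite strand and at -2.36 kb on the strand of TBX2. A second island lay at the end of the gene and beyond, from 7.60 to 14.0 kb in DMSO replicate 1. The long non-coding RNA gene LINC02875 is annotated there at 11.9 to 13.4 kb. Another, TBX2-AS1, runs through TBX2 on the opposite strand, from 11.7 to -6.39 kb, so its start also lies there. Which gene either island belongs to was not tested. The only H3K27me3 island over TBX2, in DMSO replicate 1, ran from 7.20 to 11.8 kb and overlapped this second H3K4me3 island rather than the start.

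The neighbour TBX4 lies 42.9 kb from TBX2 on the same strand and was in the opposite state. TBX4 had 0 kb of H3K4me3 in every library. In the spike-in lists the interval between them was covered by H3K27me3 over 20.4% and 33.5% with DMSO and over 0% in both GSK126 libraries, while its H3K4me3 coverage was 10.2% and 8.79% with DMSO and 10.7% and 6.92% with GSK126. In the standard lists H3K27me3 covered 5.06% and 18.6% of the interval with DMSO and again 0% with GSK126. Of genes with H3K27me3 islands with DMSO, 41.0% and 43.5% had 0 kb with GSK126 in the spike-in lists. Among genes with at least 10 kb covered with DMSO the shares were 12.8% and 16.9%, where the interval had 8.77 kb and 14.4 kb. In the standard lists 16.5% and 22.7% of genes with islands had 0 kb with GSK126. H3K4me3 over the interval showed no common direction.

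**Figure D5:**
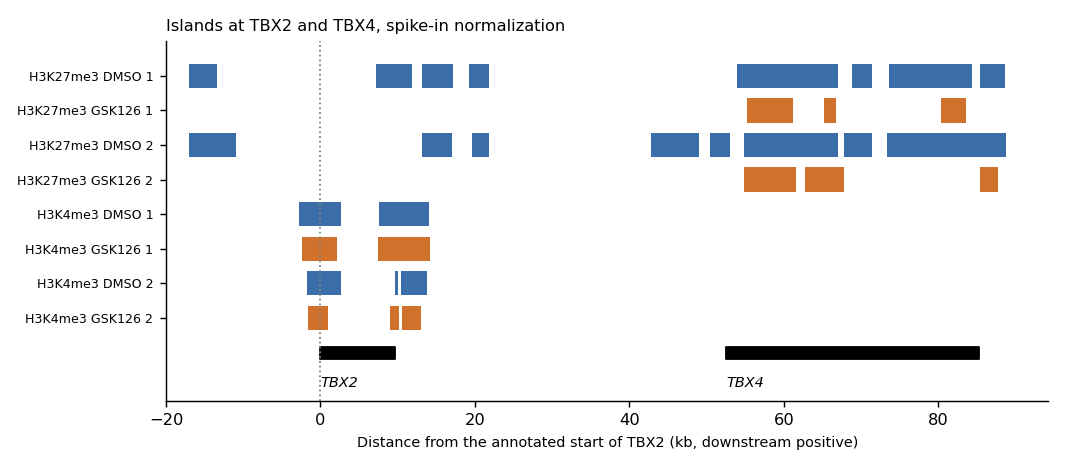
Islands of H3K27me3 and H3K4me3 around TBX2 and TBX4 in each library with spike-in normalization, against the distance from the start of TBX2 in kb. Blue bars are DMSO, orange bars GSK126 and black bars the genes, and the number after the treatment is the replicate. H3K4me3 lies at both ends of TBX2 in all 4 libraries, H3K27me3 lies over TBX4, and the orange H3K27me3 islands are absent between the genes.

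TBX1 and TBX20 had H3K4me3 inside the gene and away from the first annotated start. In TBX1 the covered length was 4.20 kb and 0.6 kb with DMSO and 2.40 kb and 1.00 kb with GSK126, and all of it lay within H3K27me3 islands of the same treatment and replicate. Most of it was an island 8.97 to 12 kb downstream of the start in DMSO replicate 1, and the other 1.20 kb of that library lay at the start itself. In TBX20 the covered length was 2.80 kb and 0.6 kb with DMSO and 3.00 kb and 1.00 kb with GSK126, 3.31 to 6.11 kb downstream of the start in DMSO replicate 1. In these spike-in lists the increase at TBX20 amounted to 1 window in replicate 1 and 2 windows in replicate 2, each of 200 bp, and its H3K4me3 did not overlap H3K27me3. In the standard lists TBX20 went the other way in replicate 1, from 2.80 kb to 2.40 kb, and from 0.6 kb to 1.00 kb in replicate 2. TBX21 had 1.80 kb of H3K4me3 at the start in DMSO replicate 1 and 0 kb in the other 3 libraries.

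The other T-box genes of the genome were measured as a list. Of TBXT, EOMES, TBX6, TBX10, TBX19, TBX22 and MGA, 4 had H3K27me3 islands in the spike-in lists, beside 6456 of all 20083 genes. In these lists coverage was lower with GSK126 in both replicates at all 4, TBXT, EOMES, TBX10 and TBX22, beside 77.4% of all genes with an island. In the standard lists it was lower in both at 2 of 4, EOMES and TBX10, beside 46.8%. TBXT encodes brachyury, a factor of the notochord and mesoderm. In the spike-in lists it was covered over 13.0 kb in both DMSO libraries and over 9.99 kb and 13.0 kb with GSK126. Its difference in replicate 2 was less than a window. EOMES is a factor of early endoderm and of T cells. It was covered in the spike-in lists over 4.56 kb and 4.60 kb with DMSO and over 0 kb in both GSK126 libraries. At equal tag number, in the standard lists, the GSK126 length over EOMES was 70.9% and 80.0% of the DMSO length. EOMES also had H3K4me3, with 2.60 kb and 1.80 kb covered with DMSO and 2.40 kb and 2.20 kb with GSK126. With DMSO its start carried both marks in both replicates. TBX6, TBX19 and MGA had 0 kb of H3K27me3.

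Among 11 genes reported as T-box targets, 5 had H3K27me3 islands in the spike-in lists, beside 6456 of all 20083 genes. Of the 5, 3 had lower coverage with GSK126 in both replicates, beside 77.4% of all genes with an island. These were NPPA, which encodes atrial natriuretic peptide, RELN, an extracellular protein that guides cortical neurons, and DLL1, a Notch ligand. DLL1 had 19.3 kb and 17.7 kb covered with DMSO and 13.5 kb and 15.3 kb with GSK126. FGF10, a growth factor of limb and lung buds, had 4.20 kb and 4.61 kb covered with DMSO and 4.00 kb and 4.81 kb with GSK126, with no common direction. In the standard lists the same 3 targets were lower in both replicates, beside 46.8%, and FGF10 was higher in both, beside 5.64%. In the spike-in lists the study's H3K27me3 control gene CCND2 had 36.9 kb in both DMSO libraries and 36.7 kb and 36.9 kb with GSK126. The other such gene, MYT1, had 131 kb and 135 kb with DMSO and 117 kb and 124 kb with GSK126. Of the active control genes, GAPDH had 0 kb of H3K27me3 in every library, whereas ACTB had 2.4 kb and 7.4 kb with DMSO and 0 kb with GSK126. The annotated ACTB span is long, at 39.5 kb. No H3K27me3 island lay at the annotated ACTB start in any library.

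Replicates of DMSO placed H3K27me3 at the same positions over the members. Of the length covered in either DMSO library, between 71.1% (TBX15) and 100% (TBX21) was covered in both at the 7 members with an island in each. No other protein-coding gene shared a DMSO replicate 1 island with a member, but in DMSO replicate 2 the island over TBX21 also reached TBKBP1, and the island over TBX1 reached GP1BB, SEPTIN5 and 1 further gene. Expressed as kept length per gene, the median with GSK126 was 65.5% of DMSO over 8 members in replicate 1 and 57.0% over 7 members in replicate 2, beside 24.4% and 21.1% over all genes with DMSO islands. Many genes have short islands that are lost whole, and among genes with at least 10 kb covered with DMSO the medians were 62.5% and 57.0% over 5 members and 42.2% and 40.7% over all. In both replicates the member median was above that of all genes, a difference that has no test.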

How the data were processed

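ChIP-seq island lists for H3K27me3 and H3K4me3 in PC9 cells were used as deposited, 14 lists from 8 libraries. The authors aligned 50-nt tags to hg19, removed duplicates and kept uniquely mapped tags, and the submitters' processing notes name BWA and SAMtools 0.1.18. Islands had been called per library by SICER 1.1 (E-value 1, random background, gap size 600 bp in H3K27me3 and 200 bp in H3K4me3 lists), without pooling of replicates. The score that the authors deposited for each island depends on the number of tags, so scores were compared only within a replicate of the standard lists, which hold equal tag numbers, and otherwise used to rank. The tag numbers behind the lists were not used here. Depth therefore enters only through the length covered, and an island that is absent may lie below the threshold.

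Gene spans came from GENCODE mapped to GRCh37, with 2000 bp added upstream, and the bases covered were counted with Python 3.11.15 and NumPy 2.4.6, checked on simulated islands. Plots were drawn with Matplotlib 3.10.9. Gene-start sequences were read from GRCh37. Some start sequences are not reported here. Groups came from the sample labels. The labels number no replicates. The numbers follow accession order and were matched to the pairs in the study's supplement, a match that remains to be checked. The authors removed tags within such pairs, so ratios were formed within a replicate. The study calls them biological replicates; the labels do not say whether cultures were separate. With 2 pairs an exact sign-flip test has a smallest p of 0.5, and the spread and the share over all genes are given in its place. The T-box genes and the lists of other T-box genes, reported targets, lung epithelial markers and control genes were chosen with earlier results of these data known. All 10 members and the genes of these lists that bear on a result are named by rule. So are genes sharing a DMSO replicate 1 island with a member. TBKBP1, GP1BB, SEPTIN5, LINC02875 and TBX2-AS1 were named after their values were seen. Alternatives were a stricter score, other spans, a minimum island length, leaving out each replicate, no pairing and the other DMSO list. Others were chosen after seeing the data. These were leaving out TBX15 or TBX2, other settings of the score per kb, and standard lists for the TBX2 to TBX4 and TBX5 to TBX3 intervals.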

Additional observations from a re-analysis of the deposited data

How the results depend on the processing

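Of 75 recomputed values, 55 kept their direction and stayed within the spread between replicates or within 1.5 times the count, 19 moved further and 1 reversed. The log2 ratio of H3K27me3 in the spike-in lists was -1.0 with islands of at least 2 times the lowest score, -1.04 over gene bodies, -0.22 within 2000 bp of the start, -0.90 against the DMSO standard lists and -0.72 without TBX15. Within 2000 bp of the start, 2 genes had lower coverage in both replicates in the spike-in lists and 1 in the standard lists, where the log2 ratio was -0.057. For H3K4me3 in the spike-in lists the ratio was -0.44 with the stricter score, -0.68 near the start and, reversed, 0.016 without TBX2. The H3K4me3 count was 0 near the start and 0 without TBX2 in both kinds of list. Leaving out a replicate gave H3K4me3 counts of 1 to 3 in the spike-in lists and 1 to 4 in the standard lists. Counting an island in either replicate gave 2 starts with both marks. Without the replicate pairing (no replicate block), the H3K27me3 ratio was -0.95 in the spike-in lists and -0.30 in the standard lists, the H3K4me3 ratios were -0.30 and -0.48, the H3K4me3 count was 0 in both, and the H3K27me3 counts were 6 and 3. The cause of these changes was not tested. The alternatives without TBX15 or TBX2 were chosen after seeing the data. The length covered by islands does not measure tag density, and H3K4me3 replicate 2, with 40.0 Mb covered in its DMSO list, is the thinnest evidence.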
